A study of Mus musculus with 4 samples.

Results

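The 9 genes described here, Prkdc, Xrcc4, Xrcc5, Xrcc6, Lig4, Dclre1c, Nhej1, Atm and Trp53bp1, encode the core of non-homologous end joining and the response to DNA double-strand breaks. They were taken by symbol from a table of 24984 genes. The list was set by function, with earlier results of these data known. The table came from TTchem-seq, an assay in which RNA made during a pulse of 4-thiouridine is biotinylated, enriched and sequenced, so that the counts over a gene, introns included, are taken as its transcriptional output. The methods describe this enrichment with depletion of ribosomal RNA, whereas the library protocol in the labels describes capture of polyadenylated RNA, which would favour mature transcripts over nascent ones. Which of these applies was not settled here, and it bears on what every level below measures. Double positive (DP) thymocytes, which carry both CD4 and CD8, were compared between control mice (WT, genotype Tox4;F/F) and conditional knockout mice (cKO, genotype Tox4;F/F;Lck+), with 2 libraries of each. The mice were on a C57BL/6 background, and the study used gender-matched littermates 6 to 8 weeks of age. Both groups carried floxed Tox4 alleles, with loxP sites around exons 4 to 6, and the cKO mice also carried Cre under the proximal Lck promoter, which is active from the double negative stage, before the DP stage. The WT mice lacked Cre, so presence of Cre and loss of Tox4 cannot be told apart. Cells of both groups spent 0.5 h in fresh antibiotic-free medium before labelling, and the length of the pulse is not given in the sources used here. The purification of DP cells was not described separately for this assay. The study reports biological replicates for its genomic assays. The labels do not say whether the 2 libraries of a genotype came from separate mice, so the p-values below measure only the spread between these libraries.

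In end joining, the Ku heterodimer (Xrcc6 encodes Ku70, Xrcc5 encodes Ku80) slides onto a broken DNA end and recruits the kinase DNA-PKcs, the product of Prkdc. Artemis, encoded by Dclre1c, trims ends and opens the sealed hairpins that the RAG recombinase leaves on coding ends. DNA ligase IV (Lig4) then closes the break, held by its scaffold XRCC4 and helped by XLF, the product of Nhej1. ATM is the kinase that signals from breaks, and 53BP1 (Trp53bp1) is a chromatin reader that shields ends from resection. Thymocytes depend on this pathway because T cell receptor genes are assembled by V(D)J recombination, and at the DP stage the alpha chain locus is still being rearranged. Loss of Prkdc, Lig4, Xrcc4 or Dclre1c function blocks lymphocyte development or leaves it severely impaired.

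TTchem-seq reads transcription from the promoter on, and the promoters of the 3 members with the smallest unadjusted p-values are shown here with short motifs that were searched in all of them. The windows were taken from the RefSeq table of GRCm38.p6 and run from 250 bases before the annotated start to 50 bases from it. They lie at chr15:82016119-82016418 on the plus strand for Xrcc6, at chr8:9976262-9976561 on the minus strand for Lig4 and at chr2:3423881-3424180 on the plus strand for Dclre1c. Each is written 5′ to 3′ on the strand of its gene, and capitals mark a match, on either strand, to the CCAAT box (CCAAT), the GC box (GGGCGG), the TATA box (TATAAA), the ETS core (CCGGAAG) or the NRF1 core (TGCGCA, which reads the same on both strands).
Xrcc6: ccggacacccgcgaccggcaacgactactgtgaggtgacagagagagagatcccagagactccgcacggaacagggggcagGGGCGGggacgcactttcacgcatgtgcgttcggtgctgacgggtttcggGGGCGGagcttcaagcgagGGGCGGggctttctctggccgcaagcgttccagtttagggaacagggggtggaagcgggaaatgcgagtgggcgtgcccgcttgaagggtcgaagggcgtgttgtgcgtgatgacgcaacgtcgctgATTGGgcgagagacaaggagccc
Lig4: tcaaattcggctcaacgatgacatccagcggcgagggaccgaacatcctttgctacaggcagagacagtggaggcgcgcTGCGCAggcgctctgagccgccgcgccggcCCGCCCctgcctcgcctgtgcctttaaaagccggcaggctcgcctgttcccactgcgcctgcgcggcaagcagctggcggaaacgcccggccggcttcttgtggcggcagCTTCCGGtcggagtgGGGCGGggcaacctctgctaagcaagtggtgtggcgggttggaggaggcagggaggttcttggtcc
Dclre1c: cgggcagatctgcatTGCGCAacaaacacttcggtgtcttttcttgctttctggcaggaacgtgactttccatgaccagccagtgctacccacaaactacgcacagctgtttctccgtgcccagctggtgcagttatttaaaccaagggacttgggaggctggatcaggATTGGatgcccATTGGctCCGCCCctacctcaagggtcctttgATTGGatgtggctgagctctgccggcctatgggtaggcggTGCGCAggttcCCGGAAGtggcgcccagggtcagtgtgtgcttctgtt

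Xrcc6 had 3 GC boxes upstream of its start and a CCAAT box just after it. Lig4 had 2 GC boxes, an ETS core and an NRF1 core, whereas Dclre1c had 3 CCAAT boxes, all on the strand opposite to the gene and upstream of the start, with a GC box, an ETS core and 2 NRF1 cores. Promoter windows were found for 8 of the 9 members, Prkdc being the exception. GC boxes were present in 7 of the 8 windows and in 35.7% of all 32851 windows of this length, NRF1 cores in 5 of 8 and in 7.76% of all, ETS cores in 4 of 8 and in 8.86%, and CCAAT boxes in 4 of 8 and in 37.4%. The letters of the TATA box occurred in 1 of the 8, that of Atm, against 13.6% of all windows. That match began at the annotated start and lay on the strand opposite to the gene. No pair of matches overlapped in the 8 windows. Their GC content ranged from 48% to 67.3%, with a median over all windows of 52.7%, and they held 9 to 31 CpG dinucleotides, with a median over all windows of 7. The annotated start used for Nhej1 lay 78587 bp from the start of the counted interval, so that window does not belong to the transcript that was counted. Its GC boxes and its NRF1 core are nevertheless included in the counts above. The start for Lig4 lay 12 bp from the start of its own counted interval. The shares over all windows were not matched for GC content. These matches are descriptions of letters and not of binding.

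The 4 libraries held 38429786 to 48690591 fragments, and values are given as CPM, fragment counts that are scaled so that libraries of unequal depth can be compared. Tox4 itself gave 74.0 and 70.3 CPM in WT cells against 59.3 and 57.2 CPM in cKO cells. Its log2 fold change (cKO over WT throughout) was -0.31, with a standard error (SE) of 0.0998, and its DESeq2 adjusted p was 0.0453. The call was lost by edgeR (adjusted p = 0.153), by limma voom (adjusted p = 0.143) and whenever 1 library was left out (DESeq2 adjusted p = 0.196 to 0.792), with the value between -0.34 and -0.28. The counted interval of Tox4 covers the whole transcript and not only the floxed exons, so this value does not measure the deletion itself. All 13 DP thymocyte markers were present, from Ptcra at a mean of 6.39 CPM to Tcf7 at 3713 CPM, and their summed level lay between 10895 and 12558 CPM. Of these 13, 3 were called lower in cKO cells by DESeq2, which were Cd8a (log2 fold change -0.54, adjusted p = 1.21e-05), Tcf7 (-0.33, adjusted p = 0.0174) and Rag1, and their part in the changes of the members was not tested. The sum of 8 mature single positive markers was 501 to 576 CPM, from Cd40lg at a mean of 8.27 CPM to Ccr7 at 223 CPM, and that of 7 early thymocyte markers was 60.5 to 70.5 CPM, from Lyl1 at 0.305 CPM to Cd44 at 34.4 CPM. The 6 B cell markers summed to 12.2 to 14.2 CPM (Ms4a1 at 0.0705 and Ebf1 at 7.81 CPM) and the 6 myeloid markers to 9.82 to 12.3 CPM (Itgax at 0.407 and Cd68 at 7.48 CPM). The 6 erythroid markers stayed at a sum of 0.729 CPM or less (Hbb-bt at 0.00608 and Hba-a1 at 0.116 CPM) and the 5 thymic epithelial markers at 1.13 CPM or less, with Psmb11 at 0 in every library and Epcam highest at 0.794 CPM. WT replicate 1 stood apart from the other libraries. It held 172 CPM of Xist, the RNA made from the inactive X chromosome of female cells, against at most 2.36 CPM elsewhere. Xist thus differed within WT. No cKO library had a high level, which goes against the description of the mice as gender-matched between the groups. A part of sex in the results was not tested. Its 15 proliferation markers, from Bub1 at a mean of 8.94 CPM to Mki67 at 174 CPM, summed to 318 CPM against 561 CPM in WT replicate 2 and 655 and 525 CPM in cKO replicates 1 and 2. Of these 15, 1, Kif11, was called higher by DESeq2. In bulk libraries such as these, fewer cells of a type and less RNA per cell cannot be told apart.

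All 9 members passed the minimum of a mean of 1 CPM. Transcriptional output of Xrcc6 and Lig4 rose in cKO cells, by 1.33-fold and 1.32-fold, and no other member passed the test. A gene was called where its mean was 1 CPM or more, its DESeq2 adjusted p was under 0.05 and the groups differed by 1.2-fold or more. Among all genes at that level 3.71% were called, 2.14% as higher and 1.57% as lower in cKO cells. No member was called lower, although 1 of them, Dclre1c, had an unadjusted DESeq2 p under 0.05 in that direction. By the edgeR quasi-likelihood test 0 members were called, and that test called 0.499% of all genes. It gave 4 members an unadjusted p under 0.05, against 1811 of all 11625 genes. By limma voom 1 member, Xrcc6, was called, against 61 of all genes. The log2 fold change was above 0 for 7 members and below 0 for 2, with a median of 0.15, and the median over all genes was 0.00. Complete separation of the groups was seen for 7 members with the cKO libraries higher and for 1 with them lower. Over all genes these shares were 24.9% and 24%. The members were not selected at random, and nothing particular to the group is read from these counts.

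**Figure D1:**
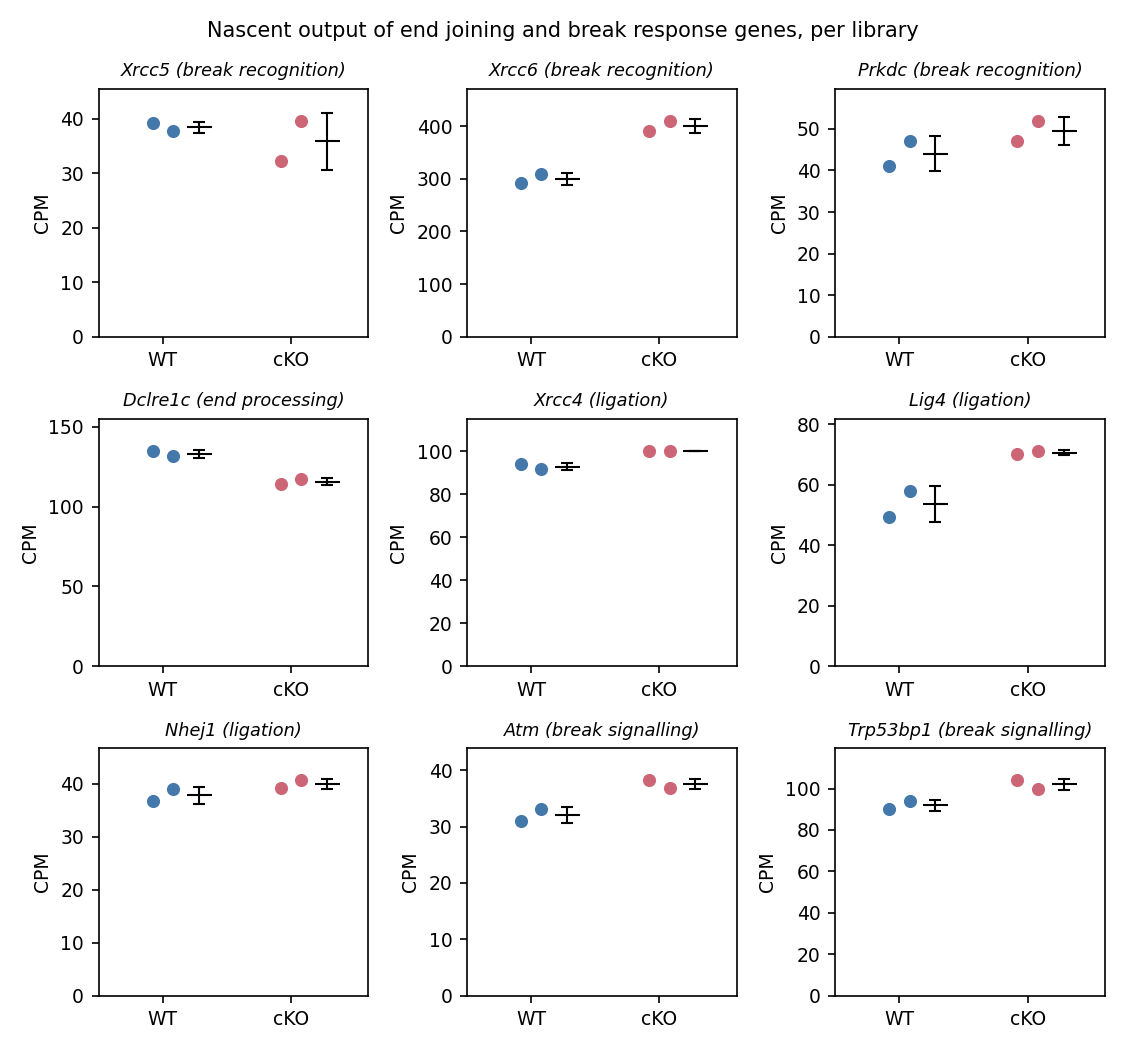
Transcriptional output of the 9 members in each library, in CPM on the y axis of each panel, with WT and cKO libraries on the x axis, points for single libraries and, beside them, a line for the group mean with bars of 1 SD (n = 2). Xrcc6 is at 292 and 308 CPM in WT and at 391 and 410 CPM in cKO, and the groups overlap only for Xrcc5.

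Break recognition comprised Xrcc6, Xrcc5 and Prkdc. Xrcc6, which lies at chr15:82016369-82040084 on the plus strand of GRCm38, had 292 and 308 CPM in WT and 391 and 410 CPM in cKO cells. The cKO libraries were both higher than both WT libraries, and the gap between groups was larger than the distance between the libraries of either group. The means were 300 ± 11.9 CPM in WT and 400 ± 12.8 CPM in cKO (SD, n = 2 each), and the log2 fold change was 0.41 with an SE of 0.0763 and a 95% interval of 0.26 to 0.56. The DESeq2 adjusted p was 1.03e-05, against 0.0577 by the edgeR quasi-likelihood test and 0.0436 by limma voom. Leaving out WT replicate 1 gave 0.37 with a DESeq2 adjusted p of 0.00954, and the call was lost without cKO replicate 2, where the value was 0.38 and the DESeq2 adjusted p 0.121.

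Xrcc5, the gene of the other Ku subunit, lies at chr1:72307421-72394953 on the plus strand. Its values were 39.2 and 37.7 CPM in WT and 32.2 and 39.6 CPM in cKO cells. The groups overlapped, because cKO replicate 1 was the lowest of the 4 libraries and cKO replicate 2 the highest. The log2 fold change was -0.10 (SE 0.135, 95% interval -0.37 to 0.16), with a DESeq2 adjusted p of 0.831, and it was 0.05 without cKO replicate 1. The ratio between the genes of the Ku subunits was examined within each library. The log2 ratio of Xrcc6 to Xrcc5 CPM was 2.90 and 3.03 in WT and 3.60 and 3.37 in cKO, a difference of 0.52. An exact two-sided permutation test over the 4 libraries gave p = 0.333, which is the smallest value that 2 against 2 libraries allow.

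Prkdc, at chr16:15637866-15842239 on the plus strand, was at 41.1 and 47.0 CPM in WT and at 47.2 and 51.8 CPM in cKO. Both cKO libraries were above both WT libraries, but cKO replicate 1 exceeded WT replicate 2 by only a small margin. The log2 fold change was 0.17 (SE 0.122, 95% interval -0.07 to 0.41) and the DESeq2 adjusted p 0.603. When WT replicate 1 was left out the value was 0.06, and when WT replicate 2 was left out it was 0.27.

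End processing was represented by Dclre1c, at chr2:3424131-3466447 on the plus strand. Its output was 135 and 132 CPM in the WT libraries and 114 and 117 CPM in the cKO libraries. It was the only member for which both cKO libraries lay below both WT libraries, and the libraries within each genotype were close to each other. The means were 133 ± 2.48 and 116 ± 2.33 CPM (SD, n = 2 each), and the log2 fold change was -0.21 with an SE of 0.0845 and a 95% interval of -0.37 to -0.04. The unadjusted DESeq2 p was 0.0145 and the DESeq2 adjusted p 0.177, so Dclre1c was not called. Without WT replicate 1 the value was -0.20. Suv39h2 overlaps Dclre1c on the other strand, and the use of strand in the counting was not stated, so reads of the overlapping genes may not be fully told apart.

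Of the ligation genes, Lig4 lies at chr8:9970020-9976323 on the minus strand. It was at 49.3 and 57.8 CPM in WT and at 70.0 and 71.2 CPM in cKO, counted on 2100 to 2830 fragments a library. The cKO libraries were nearly equal and both above the WT libraries, of which WT replicate 1 was the lowest. The means were 53.5 ± 6.02 and 70.6 ± 0.815 CPM (SD, n = 2 each), and the log2 fold change was 0.40 (SE 0.113, 95% interval 0.18 to 0.62) with a DESeq2 adjusted p of 0.0154. The adjusted p was 0.158 by the edgeR quasi-likelihood test and 0.142 by limma voom. Without WT replicate 1, the library with the low proliferation markers and the high Xist level, the log2 fold change was 0.28 with a DESeq2 adjusted p of 0.614, and the part of these differences in the result was not tested. The call was also lost without cKO replicate 1 (0.42, DESeq2 adjusted p = 0.417) and without cKO replicate 2 (0.38, DESeq2 adjusted p = 0.621), and it was kept without WT replicate 2 (0.52, DESeq2 adjusted p = 0.0077).

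The gene of the ligase scaffold, Xrcc4, lies at chr13:89848914-90089608 on the minus strand and was at 94.0 and 91.8 CPM in WT and at 99.9 and 100.2 CPM in cKO. Both cKO libraries were above both WT libraries, and the log2 fold change was 0.10 (SE 0.0886, 95% interval -0.07 to 0.28), with a DESeq2 adjusted p of 0.687. The log2 ratio of Lig4 to Xrcc4 CPM was -0.93 and -0.67 in WT and -0.51 and -0.49 in cKO, a difference of 0.30 with an exact two-sided permutation p of 0.333. Nhej1, at chr1:74967346-75046639 on the minus strand, was at 36.7 and 39.0 CPM in WT and at 39.3 and 40.7 CPM in cKO. Its groups were separated by less than 1 CPM, and the log2 fold change was 0.08 (SE 0.119, 95% interval -0.15 to 0.31) with a DESeq2 adjusted p of 0.861. Leaving out single libraries gave 0.03 to 0.13.

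Among the signalling genes, Atm, at chr9:53437122-53536671 on the minus strand, was at 31.1 and 33.1 CPM in WT and at 38.2 and 36.9 CPM in cKO. The groups did not overlap, and the log2 fold change was 0.22 (SE 0.123, 95% interval -0.02 to 0.47) with a DESeq2 adjusted p of 0.409. Trp53bp1, at chr2:121194835-121271407 on the minus strand, was at 90.0 and 93.8 CPM in WT and at 104 and 99.99 CPM in cKO. The cKO libraries were again the higher ones, and the log2 fold change was 0.15 (SE 0.0904, 95% interval -0.03 to 0.32) with a DESeq2 adjusted p of 0.499. Tubgcp4 overlaps Trp53bp1 on the other strand, with the same limit as for Dclre1c. The p-values of the 7 members that were not called do not show that these genes were unchanged.

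**Figure D2:**
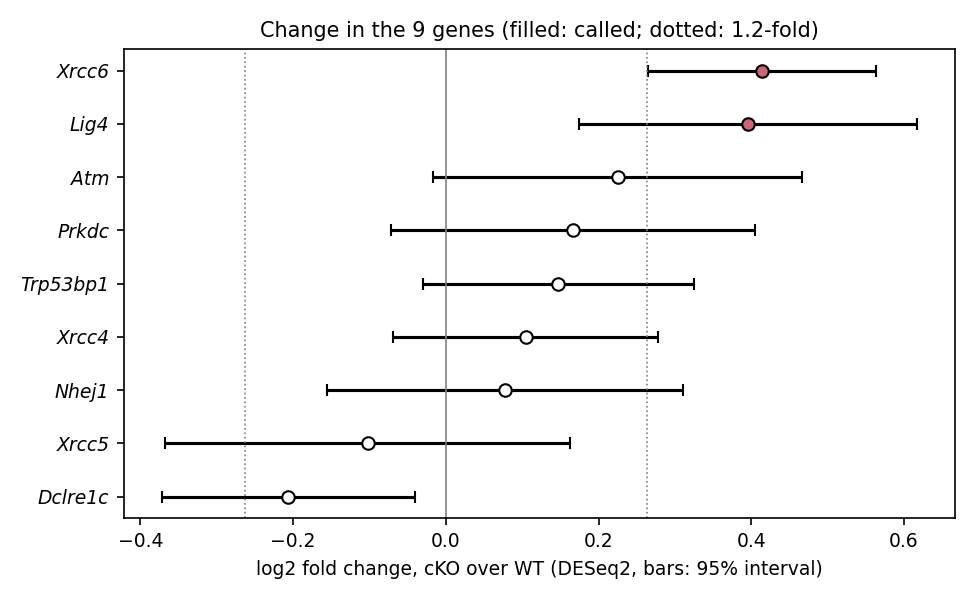
Log2 fold change (cKO over WT, x axis) of the 9 members (y axis) from the DESeq2 fit, with bars for the 95% interval filled points for called members and dotted lines at a 1.2-fold change. Xrcc6 (0.41) and Lig4 (0.40) are the called members, and the intervals of Xrcc6, Lig4 and Dclre1c (-0.21) exclude 0.

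Levels differed far more between members than between genotypes. Per kb of the counted interval, mean levels over the 4 libraries ran from 0.229 CPM per kb for Prkdc to 14.8 CPM per kb for Xrcc6, a ratio of 64.5. The median over all genes with a mean of at least 1 CPM was 1.46 CPM per kb. Xrcc6 (12.3 to 17.3 CPM per kb over the libraries) and Lig4 (7.81 to 11.3 CPM per kb) were at percentiles 96.4 and 94.3 of those genes. Dclre1c followed at 2.94 CPM per kb, at percentile 72.4, and Trp53bp1 at 1.27 CPM per kb, at percentile 45.8. The other members all lay at percentile 25.0 or below, with Nhej1 at 0.491, Xrcc5 at 0.425, Xrcc4 at 0.401, Atm at 0.350 and Prkdc at 0.229 CPM per kb. In this order the ranges of neighbours overlapped for Xrcc5 with Xrcc4 and for Xrcc4 with Atm, and those of the other neighbours did not.

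The counted intervals differed in length and content. Lig4 was the shortest, at 6304 bp with exons over 82.5% of it, and Xrcc4 the longest, at 240695 bp with exons over 0.640%. Prkdc spanned 204374 bp and Xrcc6 23716 bp. The members called higher, Lig4 and Xrcc6, were thus the 2 shortest and the 2 with the highest level per kb. With a trend against gene length removed from each library, the same 2 members were called, while Xrcc4 went from 0.10 to 0.04, Nhej1 from 0.08 to 0.03, Prkdc from 0.17 to 0.10, Trp53bp1 from 0.15 to 0.10 and Xrcc5 from -0.10 to -0.15 on the log2 scale. Over all genes the calls went from 249 higher and 182 lower to 209 and 208. If levels were divided by exon length in place of interval length, Xrcc4 would move from rank 7 to rank 2 and Lig4 from rank 2 to rank 6, so the order depends on how far intronic RNA is counted in the signal.

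**Figure D3:**
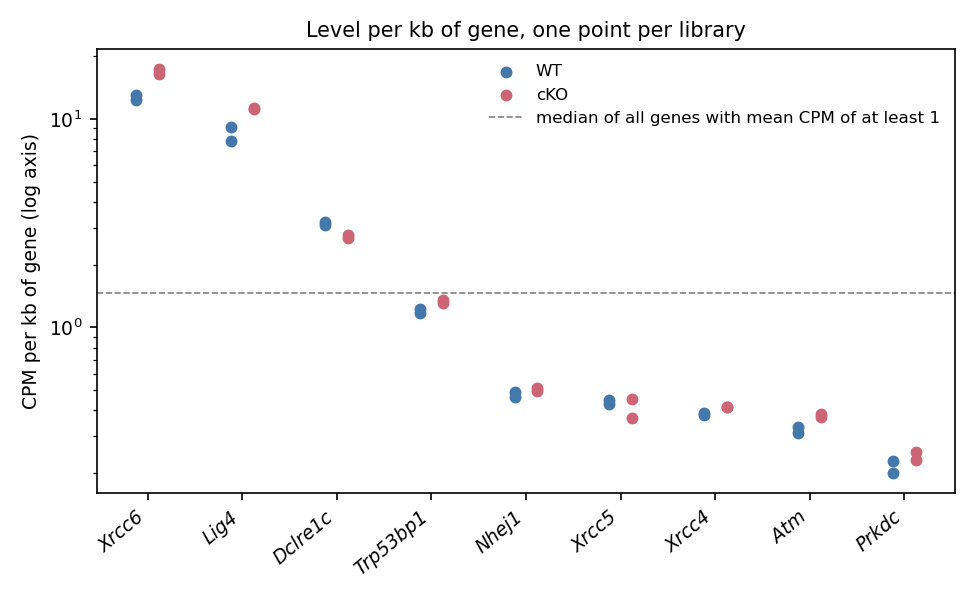
Level of the 9 members in CPM per kb of the counted interval (log axis), with a point for each library and a dashed line at the median of all genes with a mean of at least 1 CPM (1.46 CPM per kb). Xrcc6 is highest at a mean of 14.8 CPM per kb and Prkdc lowest at 0.229 CPM per kb.

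For 4 of the 9 members a gene on the other strand started within 1000 bp and ran the other way, so the promoters of each pair lie next to each other. Desi1 starts 149 bp from Xrcc6, within the promoter window shown above. It was at 337 and 390 CPM in WT and at 355 and 337 CPM in cKO, and the groups overlapped. Its log2 fold change was -0.08 (SE 0.0875), and DESeq2 gave an adjusted p of 0.803. The log2 ratio of Xrcc6 to Desi1 CPM was -0.21 and -0.34 in WT and 0.14 and 0.28 in cKO. Xrcc6 was thus the lower of the pair in both WT libraries and the higher in both cKO libraries by this count. The difference of 0.49 had an exact two-sided permutation p of 0.333.

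In the other pairs the ratio of member to neighbour stayed close to its WT value. Mcm4, which encodes a subunit of the replicative helicase and starts 466 bp from Prkdc, was higher by 0.18 on the log2 scale (SE 0.129, DESeq2 adjusted p = 0.605). Npat, which encodes a regulator of histone gene transcription and starts 376 bp from Atm, was at 59.2 and 64.5 CPM in WT and at 79.0 and 68.9 CPM in cKO, and its log2 fold change was 0.25 (SE 0.109, DESeq2 adjusted p = 0.214). Tmem167 starts 59 bp from Xrcc4 and its log2 fold change was 0.05 (SE 0.129, DESeq2 adjusted p = 0.923). The log2 ratio of member to neighbour changed by -0.01 for Prkdc, 0.05 for Xrcc4 and -0.03 for Atm, with exact two-sided permutation p-values of 1, 0.667 and 1. In all 6 ratios were computed, and since 0.333 is the smallest p the design allows, none could pass. None of the 4 neighbours was called by DESeq2 or by edgeR, and 1, Npat, had an unadjusted p under 0.05 by DESeq2. By edgeR it was also 1.

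**Figure D4:**
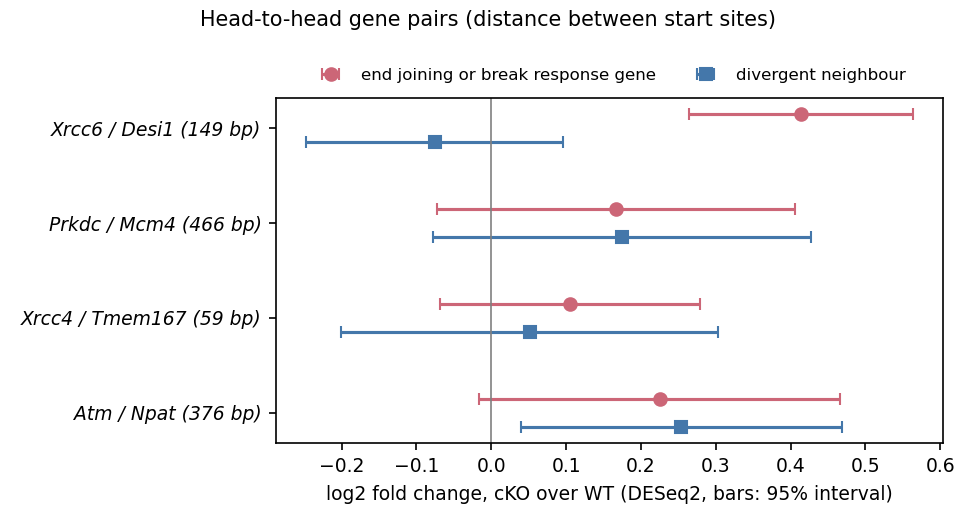
Log2 fold change (cKO over WT, with 95% interval) of the 4 members with a divergent neighbour, each beside that neighbour. Xrcc6 (0.41) and Desi1 (-0.08) lie apart, and the members of the other pairs lie close to each other.

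The pathway around these members was examined with 6 lists of 63 other genes, grouped by function, of which 62 had a mean of at least 1 CPM (Poll did not). Of these 62, 6 were called higher and 1 lower in cKO cells, against 2.14% called higher and 1.57% lower over all genes at that level. A log2 fold change above 0 was found for 47, against 50.2% of all genes, and the median was 0.15, or 0.08 when WT replicate 1 was left out. By the edgeR quasi-likelihood test 0 of them were called, and limma voom also called 0. An unadjusted p under 0.05 was found for 17 of the 62 by DESeq2, against 1570 of all 11625 genes, and for 20 by edgeR, against 1811. Nothing particular to these lists is read from the counts.

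The recombinase list held the genes that create and modify V(D)J breaks. Rag1, the catalytic subunit of the recombinase, was at 918 and 1169 CPM in WT and at 882 and 802 CPM in cKO. Both cKO libraries were below both WT libraries, and Rag1 fell by 0.31 on the log2 scale (SE 0.102, DESeq2 adjusted p = 0.0499). The call was lost without WT replicate 2, where the log2 fold change was -0.12, and without either cKO replicate. It was kept without WT replicate 1, at -0.49 (DESeq2 adjusted p = 2.42e-05). At an adjusted p this close to 0.05 it was also lost with TMM factors (DESeq2 adjusted p = 0.058), with total count factors (0.0522), with a minimum of 1 CPM in every library (0.0582) and with independent filtering off (0.0903), the value staying near -0.31. Rag2, its partner, was at 36.9 and 47.0 CPM in WT and at 46.2 and 41.5 CPM in cKO (log2 fold change 0.06, DESeq2 adjusted p = 0.914). Dntt, which encodes the terminal transferase that adds bases at junctions, had a log2 fold change of 0.18 (DESeq2 adjusted p = 0.381). The other genes of this list of 5 were not called.

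None of the 9 end joining accessory genes was called by DESeq2, with 3 at an unadjusted p under 0.05, or by edgeR, with 4. Their median log2 fold change was -0.21. Polm, which encodes a gap-filling polymerase of end joining, had the lowest value, with 12.9 and 12.9 CPM in WT and 7.69 and 9.33 CPM in cKO (log2 fold change -0.60, SE 0.205, DESeq2 adjusted p = 0.0731). Tdp1, which encodes a phosphodiesterase that cleans ends, had the highest at 0.35 (DESeq2 adjusted p = 0.224). The 8 effectors of 53BP1 ranged from -0.24 for Dynll1 to 0.18 for Shld2, a subunit of shieldin, with a median of 0.11, or 0.07 when WT replicate 2 was left out. None was called or had an unadjusted p under 0.05 by DESeq2 or edgeR.

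Of 17 further break signalling genes 1, Chek1, was called higher. This gene of a checkpoint kinase that acts in S and G2 phases was at 5.33 and 6.47 CPM in WT and at 11.8 and 9.51 CPM in cKO, and its log2 fold change was 0.85 (SE 0.238, DESeq2 adjusted p = 0.0135). The median of the list was 0.09, or 0.17 when WT replicate 2 was left out, and H2afx, the gene of the histone variant phosphorylated at breaks, had the lowest value at -0.03. H2afx was at 23.3 CPM in WT replicate 1 and 49.2 CPM in WT replicate 2, a spread wider than the distance between the groups. Chek1 was not called in any of the fits that left out 1 library, where its log2 fold change was 0.69 or more.

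Homologous recombination, the other main route of break repair, had 4 of 16 genes called higher in cKO cells and none lower by DESeq2, against 2.14% and 1.57% of all genes. They were Rad51b, whose product acts in strand exchange (log2 fold change 0.85, DESeq2 adjusted p = 2.96e-05), Blm, a helicase (0.57, 3.62e-04), Bard1, the partner of BRCA1 (0.48, 0.0163), and Brca1 itself (0.57, 0.0203). The call of Brca1 was lost with TMM factors (DESeq2 adjusted p = 0.464) and with the length trend removed (DESeq2 adjusted p = 0.504), at log2 fold changes of 0.57 and 0.52. Rad51b was at 18.7 and 26.6 CPM in WT and at 42.5 and 39.3 CPM in cKO, with no overlap. Brca1 was at 28.8 and 44.7 CPM in WT and at 56.8 and 52.6 CPM in cKO, again with no overlap and with WT replicate 1 far below WT replicate 2. By edgeR 0 of the 16 were called. An unadjusted p under 0.05 was found for 10 of the 16 by DESeq2, against 1570 of all 11625 genes. By edgeR it was found for 11, against 1811 of all genes. For break signalling these counts were 2 and 3, and for the recombinase and alternative end joining lists they were 1 and 1. Rad52 had the lowest value of the homologous recombination list at -0.10 (DESeq2 adjusted p = 0.791). The median of the list was 0.54, and it became 0.34 when WT replicate 1 was left out and 0.72 when WT replicate 2 was. Among 7 alternative end joining genes 1 was called higher, Polq, the gene of the polymerase that defines this route (0.64, DESeq2 adjusted p = 0.0212), with 13.0 and 19.3 CPM in WT and 25.6 and 25.0 CPM in cKO. Lig3 had the lowest value there at -0.01, and the median was 0.15, or 0.07 when WT replicate 1 was left out and 0.42 when WT replicate 2 was.

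These calls changed when single libraries were left out. Without WT replicate 1, which had the lowest summed proliferation markers, 2 of the 63 genes were called in place of 7, and Rad51b was the only one of the homologous recombination list among them. Its log2 fold change was then 0.61, that of Brca1 0.28, that of Bard1 0.29, that of Blm 0.44, and that of Polq 0.38. Without WT replicate 2, 9 genes were called and the values were larger, at 1.13 for Rad51b, 0.93 for Brca1, 0.71 for Bard1, 0.72 for Blm and 0.96 for Polq. Without cKO replicate 1 none were called (DESeq2), and without cKO replicate 2 there were 2. The 15 proliferation markers had a median log2 difference of 0.81 between WT replicate 2 and WT replicate 1 and a median log2 fold change between genotypes of 0.34. Their part in the changes of the repair genes was not tested.

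**Figure D5:**
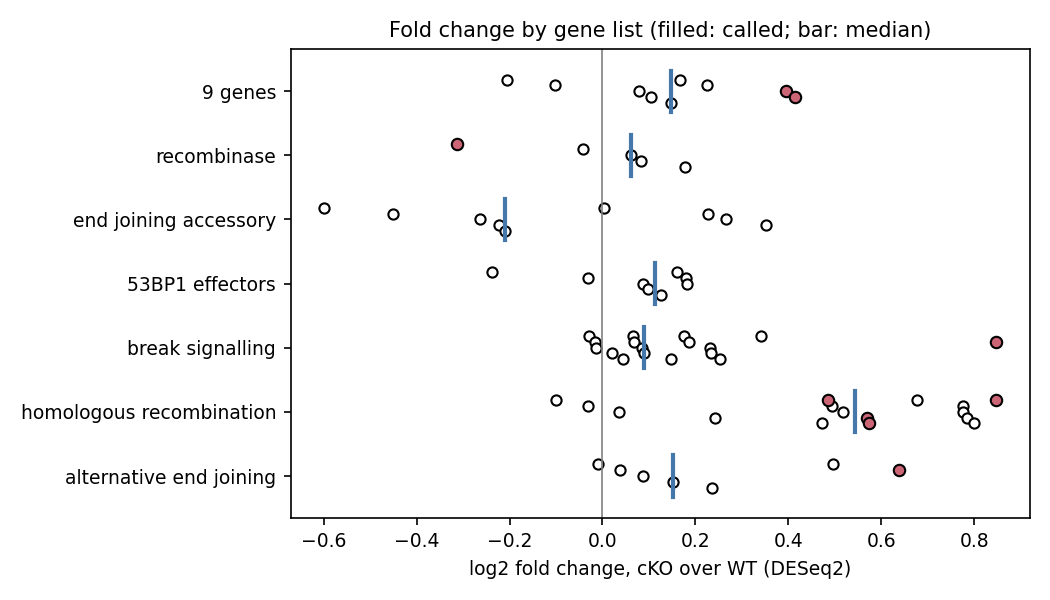
Log2 fold change (cKO over WT) of the 9 members and of each gene of the 6 pathway lists with a mean of at least 1 CPM, with a point per gene, filled where the gene was called, and a bar for the median of each list. The homologous recombination list has the highest median (0.54) and the end joining accessory list the lowest (-0.21).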

How the data were processed

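TTchem-seq counts of 2 WT and 2 cKO libraries of DP thymocytes were analysed, grouped by sample title. Per the labels and the methods, the authors filtered reads with fastp 0.13.1 and aligned them with STAR 2.7.9a to mm10 (GRCm38), and the notes also list featureCounts 1.6.1. The authors deposited expected counts over RefGene transcript intervals, introns included, of which 8.61% were fractional. They were rounded. Yeast spike-in RNA was not used for scaling, so a change shared by all genes would not be seen. Without molecular identifiers, PCR copies cannot be told from separate molecules.

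CPM used library totals of the deposited table. Following the study, the test was the DESeq2 1.42.0 Wald test with default size factors, no covariates and Benjamini-Hochberg adjustment over all genes left by its default independent filtering (R 4.3.3). Called genes had adjusted p under 0.05, a 1.2-fold change or more and mean CPM of at least 1. SE and 95% intervals are those of the fit. Alternatives were edgeR 4.0.16, limma 3.58.1 voom, other factors and filters, a length trend, the replicate number as a block, and each library left out. Scripts were tested on simulated data. Named genes were the members, Tox4, Rag1, Rag2, Dntt, every divergent neighbour, every called gene of the pathway lists with their highest and lowest fold change, and the highest and lowest gene of each marker list. Xist, Cd8a and Kif11 were added after their values were seen. The members and lists were chosen with earlier results of these data known.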

Additional observations from a re-analysis of the deposited data

How the results depend on the processing

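The members were counted on 1237 to 16282 fragments per library, and 2 libraries a genotype limit the precision. Each member was compared with its main result under 16 alternatives, which made 144 comparisons. Of these, 132 kept direction and call, but the 7 members that were not called had no call to lose. Xrcc6 kept its call in 13 of 16 alternatives and Lig4 in 8 of 16. The call was lost in 11 comparisons (8 of Lig4 and 3 of Xrcc6). The 1 reversal was that of Xrcc5, which ranged from -0.26 to 0.05 (0.047 without cKO replicate 1) with 1 library left out. Dropping the CPM minimum and requiring a 1.5-fold change only reset thresholds on the main fit, so direction could not change there. The causes were not tested.

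Against 2 members called, 0 were called by edgeR (genes kept by filterByExpr) and at a required 1.5-fold change, 1 by limma voom and by edgeR on genes with a mean of at least 1 CPM, and 0 to 2 with 1 library left out. Against 7 pathway genes called, 0 were called by edgeR, by limma voom and by edgeR at that level, 14 by edgeR without a filter, 3 at a required 1.5-fold change, and 0 to 9 with 1 library left out. These last edgeR filters, none and a mean of at least 1 CPM, were chosen after seeing the data. Apart from the replicate block, the other alternatives kept both counts within 1.5 times, with 5 pathway genes called with TMM factors (Rag1 and Brca1 lost), 6 with total count factors, with a minimum of 1 CPM in every library and with independent filtering off (Rag1 lost in each) and 6 with the length trend removed (Brca1 lost).

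Replicate numbers did not pair the libraries (correlation of deviations -0.03). With the replicate number as a block, 1 member (Xrcc6) and 2 pathway genes (Rad51b and Blm) were called, the calls of Rag1 (0.257), Chek1 (0.165), Brca1 (0.0573), Bard1 (0.0891) and Polq (0.0884) were lost, and Tox4 was at -0.31 (adjusted p = 0.361).

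Tox4 kept its value of -0.31 and lost its call by edgeR (adjusted p = 0.153), by edgeR at a mean of at least 1 CPM (0.122), by limma voom (0.143), with total count factors (0.0511), with independent filtering off (0.0821) and at a required 1.5-fold change. With 1 library left out it was -0.34 to -0.28 and not called. Fits with a lone library assume that it varies like the other genotype.

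Over all genes, 431 calls became 58 by edgeR, 61 by limma voom, 76 by edgeR at a mean of at least 1 CPM, 838 by edgeR without a filter, 193 with the block and 89 to 446 with 1 library left out. The median of the members, 0.15, ranged from 0.0986 to 0.184 with 1 library left out and was 0.0973 with the length trend removed. Their median level, 0.491 CPM per kb, was 14.5 per kb of exon.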
